A study of Mus musculus with 6 samples.

Results

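Lipofibroblasts are lipid-storing fibroblasts of the alveolar wall, and 8 genes linked to their identity were followed here: the transcription factor genes Pparg and Tcf21, the receptor genes Pth1r, Pdgfra and Lepr, and Npnt, Gpx3 and Inmt, which encode a matrix protein, a secreted peroxidase and a methyltransferase. All probe sets whose only annotated symbol was one of these 8 were taken, which gave 18 of 45037 probe sets, for 8 of 18193 genes. The study compared whole-lung RNA of mouse fetuses at E18.5, shortly before birth, with Affymetrix MOE430 V2 microarrays. In the 3 Scap_ko samples Scap had been removed conditionally from respiratory epithelial cells (Scap d/d). The 3 Scap_control samples had the same mixed strain background, drawn from FVB/N and B6. The Cre driver, the alleles carried by the controls and whether a sample was 1 animal or a pool are details the sources used here do not give. The title of the series names alveolar type II cells and lipofibroblasts, so the comparison addresses how genes of this mesenchymal cell read when an epithelial lipid regulator is missing.

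Lipofibroblasts lie next to alveolar type II cells, take up and store triglyceride and retinoids, and pass lipid to the epithelium for surfactant. In rodents, parathyroid hormone-related protein from the epithelium acts on its receptor Pth1r in these fibroblasts and maintains PPAR gamma, the nuclear receptor that drives lipid storage, while leptin made by the fibroblasts acts back on leptin receptors. Scap is the sterol-sensing escort of SREBP, the family of factors that switch on lipid synthesis once they have been cut free in the Golgi. None of the 8 genes is expressed by lipofibroblasts alone, and the arrays read whole lung, so fewer cells of a type and less RNA per cell cannot be told apart. By their brightest probe sets 7 of the 8 were above the brightness limit explained below, and Pparg, the central regulator among them, was not.

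None of the 7 genes that could be tested passed the test, and most read at nearly the same level in both groups. Tcf21, Pth1r, Pdgfra, Lepr and Npnt stood within 10% of control by their brightest probe sets, though the probe sets of Pdgfra did not read alike. Inmt and Gpx3 averaged lower in Scap_ko lungs, but both also varied strongly between arrays of a group. Pparg averaged higher in Scap_ko lungs at a signal too dim to be tested. The account of single genes below follows the plot of signal by array.

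**Figure D1:**
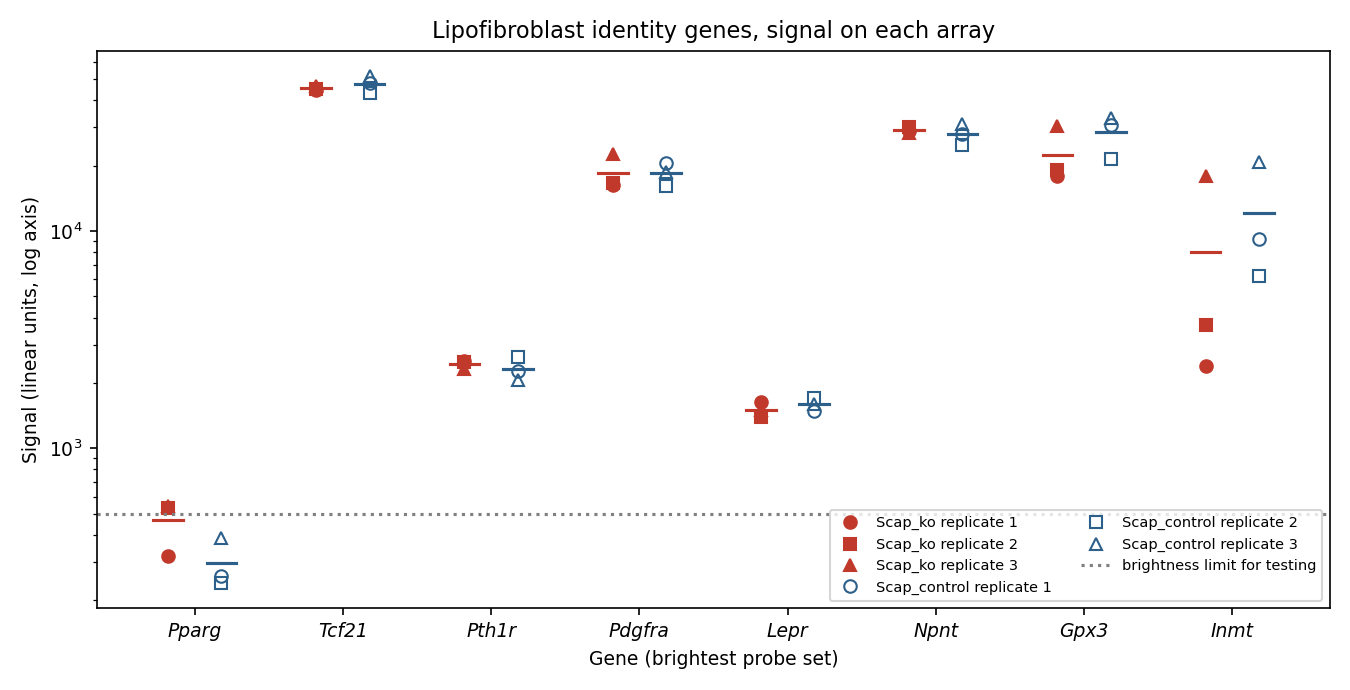
Signal of the brightest probe set of each of the 8 genes (linear signal units on a log axis) on the 3 Scap_ko arrays (filled, left) and the 3 Scap_control arrays (open, right), with short lines at the group means. Tcf21, Pth1r, Lepr and Npnt cluster tightly, Inmt spreads from 2382 to 20846, and Pparg lies around the dotted brightness limit of 497.8.

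Values are probe set signals in linear units, group values are means ± SD with n = 3 arrays each, and log2 differences are Scap_ko minus Scap_control with the standard error (SE) of limma. A percent of control is that log2 difference turned back into a ratio, so it can depart slightly from the ratio of the means. Levels of different probe sets are not comparable, since probes differ in affinity. A probe set was tested if its mean log2 signal was at least that of the middle probe set of the array, which corresponds to 497.8 signal units. Of the 18 probe sets 16 passed this limit and 2 were dim, the single one of Pparg and 1 of 4 of Lepr. Adjusted p-values are Benjamini-Hochberg over the 22519 probe sets tested. Whether the 3 arrays of a group stand for separate animals is not stated, and p-values measure only how these samples scatter, possibly for technical reasons.

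The median signal of an array was 490.8 to 530.4, and with 3 arrays a group precision is limited by their number. The brighter Scap probe set read 1847, 3286 and 2702 in Scap_ko lungs, against 7264, 4195 and 3080 in Scap_control lungs (limma adjusted p = 0.932; exact two-sided permutation p = 0.2, where 0.1 is the smallest possible). Every marker with a probe set in the lists for alveolar type II cells, alveolar type I cells, general epithelium, endothelium and pericytes was above the brightness limit, as were 5 of 6 leukocyte, 4 of 5 mesothelial and 5 of 6 heart and skeletal muscle markers. The brightest markers were Sftpc and Slc34a2 for alveolar type II and Ager and Cav1 for type I cells, Cdh1 and Krt8 for epithelium, Kdr and Emcn for endothelium, and Pdgfrb and Notch3 for pericytes. They were Lyz2 and Csf1r for leukocytes, Msln and Krt19 for mesothelium, Actc1 and Myl7 for muscle, and, in lists that were mostly dim, Retn and Adipoq for adipocytes and Cyp2e1 and Alb for liver. The arrays numbered 3 of both groups shared deviations from their group means (correlation 0.41 over the tested probe sets). Values without them are therefore also given for Inmt, Gpx3, Pparg and the second Pdgfra probe set, and at the end for some others.

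In limma the adjusted threshold of 0.05 was passed by 0 of the 16 tested probe sets of the 8 genes and by 0 of all 22519 (0%). At an unadjusted p of 0.05 the counts were again 0 of 16, beside 5.24% of all probe sets. Groups without overlap were found in 0 of 16, beside 10.5% of all. The smallest unadjusted p among the 16 was 0.0973 and the smallest adjusted p was 0.940. Signs were negative in 12 and positive in 4, beside 10648 negative and 11871 positive of all 22519. The median log2 difference was -0.045 over the 16 probe sets and 0.0098 over all tested probe sets. Of the 16, 12 lay within 0.1 of zero on the log2 scale, beside 10686 of all 22519. Several of the 16 read the same gene, so these are not counts of separate genes. The same direction in all 3 pairs of samples with the same number was seen in 3 of the 16, Inmt and Gpx3 lower and 1 of 5 Npnt probe sets higher in Scap_ko lungs, beside 30.5% of all tested probe sets.

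**Figure D2:**
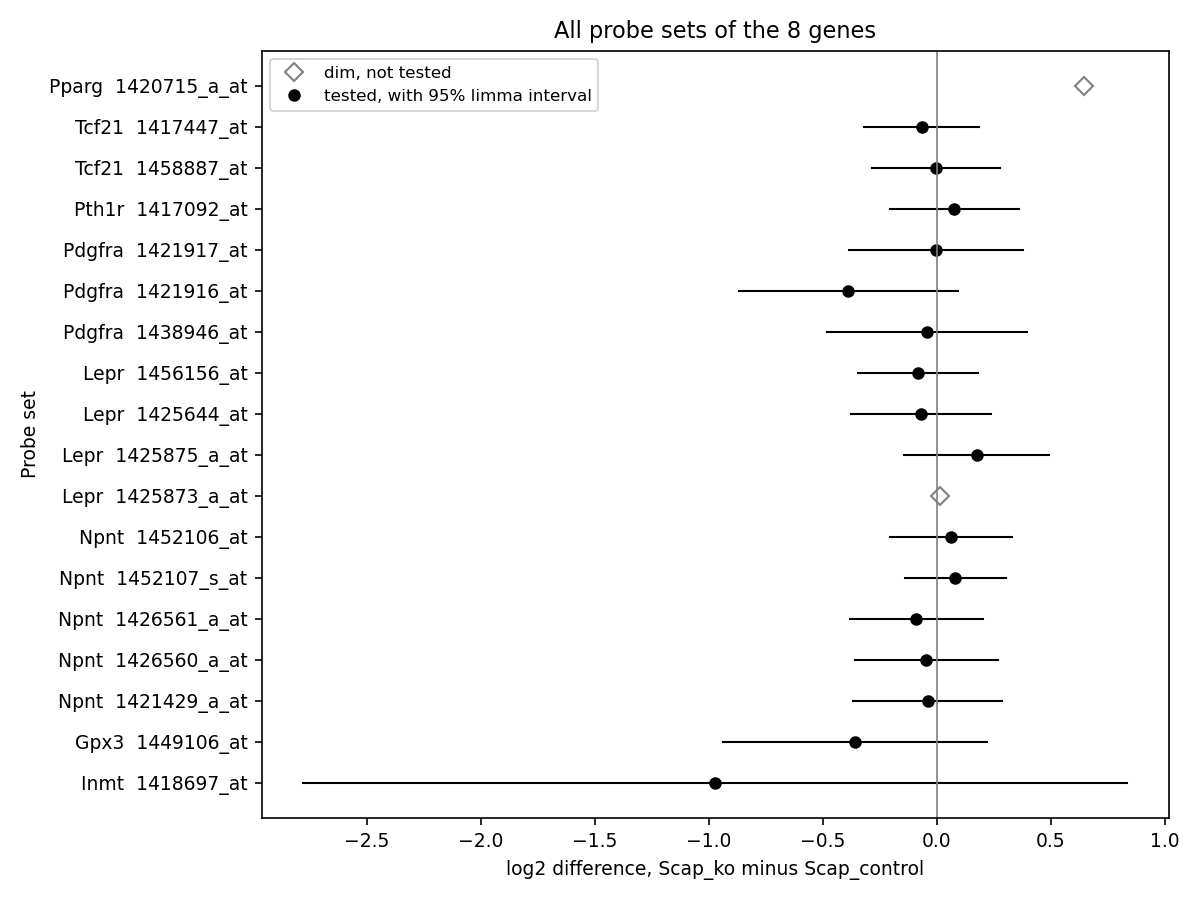
Log2 difference between Scap_ko and Scap_control arrays for all 18 probe sets (points), with 95% limma intervals for the 16 tested ones; open diamonds are the 2 dim probe sets without a test. Every interval crosses zero, and that of Inmt, from -2.78 to 0.84, is the widest.

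The promoters of Inmt, Gpx3 and Pparg are shown because these 3 genes had the largest log2 differences between groups by their brightest probe sets. Each line gives the 250 bases before the annotated start on the gene's own strand, from RefSeq (GRCm38.p6). For Inmt the bases lie at chr6:55174991-55175240 on the minus strand, for Gpx3 at chr11:54902604-54902853 on the plus strand, and for Pparg at chr6:115360894-115361143 and chr6:115362099-115362348 on the plus strand. Of 3 Pparg windows in the table these are the 2 that hold the marked site; the other has no match and is not printed. Capitals mark TATAAA in Inmt and the nuclear receptor core site AGGTCA in Pparg.
Inmt: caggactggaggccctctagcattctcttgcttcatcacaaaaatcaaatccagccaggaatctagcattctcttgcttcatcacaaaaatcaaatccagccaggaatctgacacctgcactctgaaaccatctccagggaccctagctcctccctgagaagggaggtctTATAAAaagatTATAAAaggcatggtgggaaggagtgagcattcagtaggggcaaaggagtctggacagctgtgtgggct
Gpx3: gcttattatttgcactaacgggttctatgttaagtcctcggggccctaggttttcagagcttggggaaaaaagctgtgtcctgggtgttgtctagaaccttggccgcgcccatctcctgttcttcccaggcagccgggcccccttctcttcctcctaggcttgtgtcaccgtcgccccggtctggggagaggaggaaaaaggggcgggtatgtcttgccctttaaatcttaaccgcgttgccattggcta
Pparg, first window: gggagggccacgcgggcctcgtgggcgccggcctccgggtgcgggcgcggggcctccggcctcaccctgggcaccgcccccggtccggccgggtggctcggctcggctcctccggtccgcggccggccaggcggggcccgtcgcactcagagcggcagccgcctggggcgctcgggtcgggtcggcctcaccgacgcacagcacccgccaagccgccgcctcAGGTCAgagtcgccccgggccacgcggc
Pparg, second window: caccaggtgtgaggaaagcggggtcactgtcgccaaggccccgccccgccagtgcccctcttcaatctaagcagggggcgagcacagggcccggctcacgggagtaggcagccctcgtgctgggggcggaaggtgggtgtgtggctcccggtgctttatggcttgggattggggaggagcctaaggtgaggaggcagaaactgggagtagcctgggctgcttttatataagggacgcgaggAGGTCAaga

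All 8 genes had promoter windows in the RefSeq table, 14 in all of 300 bases each (250 before and 50 after the start). The sterol regulatory element TCACNCCAC, sought on both strands, was in 0 of the 14 windows and in 1.24% of all 32851. A direct repeat of AGGTCA with 1 base between, the arrangement bound by PPAR and RXR pairs, was in 0 of 14 and in 0.0396% of all windows, both strands searched. The single core site AGGTCA, on either strand, was in 3 of the 14, 2 of Pparg and 1 of Npnt, and in 16.3% of all. TATAAA on the gene's own strand was found in Inmt alone of the 8 genes, in 2 copies that begin 80 and 69 bases before the start, and in 8.32% of all windows. The Inmt window also holds a stretch of 46 bases that repeats once directly after itself. The searches for the single core site, TATAAA and repeats were added after the sequences were seen, and matches describe letters only.

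Pparg, the PPAR gamma gene with the core site in 2 of its 3 promoter windows, was read by 1 probe set (1420715_a_at). It gave 318.3, 534.2 and 545.5 in Scap_ko lungs, against 259.4, 241.4 and 388.2 in Scap_control lungs. The Scap_ko arrays 2 and 3 lay above every control, while Scap_ko array 1 lay below control array 3, so the groups overlapped. Means were 466 ± 128 in Scap_ko lungs and 296.3 ± 80.1 in Scap_control lungs, a log2 difference of 0.64. In each of the 3 pairs of samples with the same number the Scap_ko sample read higher, by 0.30, 1.15 and 0.49 on the log2 scale. With no brightness filter the SE was 0.30 (limma adjusted p = 0.965, and adjusted p = 0.817 with the replicate number as a block). Whether signals this dim lie above background is not known, and the difference was 0.51 when 100 was added to every signal. Without both arrays numbered 3 the difference was 0.72. Of 4 adipocyte markers, all were dim and none was at 0, with summed signals of 528.9 to 593.8 in Scap_ko lungs and 119.2 to 450.7 in Scap_control lungs. The brightest, Retn, averaged 409.5 ± 71.6 in Scap_ko and 223.3 ± 128.3 in Scap_control lungs. By log2 difference 2 of the 4 were higher and 2 lower in Scap_ko lungs. The part of these markers in the Pparg values was not tested.

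Of the 3 genes whose profile over the 6 arrays lay closest to that of Pparg, Ccno had a root mean square difference of 0.12 log2 between gene-centred profiles, beside a spread of 0.46 for Pparg itself. Pld6 followed at 0.14 and Thbs3 at 0.14. This describes likeness over 6 arrays only.

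Tcf21, a helix-loop-helix transcription factor of lung mesenchyme, was among the steadiest of the 8. Its brighter probe set (1417447_at) read 44616, 44957 and 46296 in Scap_ko lungs, against 48030, 42975 and 51641 in Scap_control lungs. The Scap_ko values lay inside the control range. The log2 difference was -0.066 (SE 0.11, 95% interval -0.32 to 0.19, limma adjusted p = 0.974). Its other probe set (1458887_at) read 5851, 5411 and 6412 in Scap_ko lungs, against 5749, 6545 and 5439 in Scap_control lungs, at 99.7% of control.

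Pth1r, the receptor for parathyroid hormone and its related protein, was read by 1 probe set (1417092_at) at 2515, 2496 and 2320 in Scap_ko lungs, against 2272, 2634 and 2073 in Scap_control lungs. All Scap_ko values lay within the control range, at 105.5% of control. The log2 difference was 0.077 (SE 0.12, 95% interval -0.21 to 0.36), which spans differences of both signs.

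Pdgfra, the receptor for PDGF-A that marks lipofibroblasts and also precursors of myofibroblasts, had 3 probe sets that did not read alike. The brightest (1421917_at) gave 16204, 16721 and 22519 in Scap_ko lungs, against 20468, 16115 and 18615 in Scap_control lungs. Scap_ko array 3 was the highest of the 6 and the groups overlapped, at 99.8% of control (log2 difference -0.0030, SE 0.16). The second (1421916_at) gave 1927, 2110 and 2496 in Scap_ko lungs, against 3264, 2090 and 3343 in Scap_control lungs. Here control arrays 1 and 3 lay above every Scap_ko array and control array 2 lay among them. Its log2 difference was -0.39 (SE 0.20, limma adjusted p = 0.940), and without Scap_control replicate 2 it was -0.61 and below an unadjusted p of 0.05 (adjusted p = 0.598). Leaving out Scap_ko replicate 1 gave -0.31, Scap_control replicate 1 -0.29 and Scap_control replicate 3 -0.27, none of them below that p. Without both arrays numbered 3 the log2 difference was -0.37, also not below it. For fits with 1 array left out the share of all probe sets below that p was not counted. The dimmest (1438946_at) averaged 664 ± 73.7 in Scap_ko lungs and 694 ± 156 in Scap_control lungs, at 97.0% of control.

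Lepr, the leptin receptor gene, has splice forms that differ in their cytoplasmic end, and 3 of its 4 probe sets were tested. The brightest (1456156_at) read 1638, 1390 and 1494 in Scap_ko lungs, against 1478, 1706 and 1603 in Scap_control lungs, with overlapping groups and 94.4% of control. A second (1425644_at) read 1469, 1224 and 1178 in Scap_ko lungs, against 1314, 1498 and 1240 in Scap_control lungs, at 95.4% of control. The third (1425875_a_at) went the other way, with 944.1, 989.8 and 792.9 in Scap_ko lungs, against 705, 862.4 and 848.7 in Scap_control lungs. Its log2 difference of 0.17 (SE 0.14, limma adjusted p = 0.954) was the most positive of the 16 tested. The dim probe set (1425873_a_at) read 102.2 to 204.1 in Scap_ko lungs and 104.2 to 150.9 in Scap_control lungs. Its log2 difference of 0.014 has no settled sign, since leaving out 1 array moved it between -0.30 and 0.20. The sources used here do not say which splice form each probe set reads.

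Npnt encodes nephronectin, a matrix protein that binds the integrin alpha 8 beta 1 on neighbouring mesenchymal cells, and it had 5 tested probe sets. The brightest (1452106_at) read 28923, 30184 and 28196 in Scap_ko lungs, against 27952, 24968 and 31001 in Scap_control lungs, a log2 difference of 0.062 (SE 0.11). Another (1452107_s_at) read 19927, 19396 and 19625 in Scap_ko lungs, against 18464, 17816 and 19481 in Scap_control lungs. Here Scap_ko arrays 1 and 3 exceeded every control, and Scap_ko array 2 lay just below control array 3. Its difference of 0.081 (SE 0.095, 95% interval -0.14 to 0.30) was positive in all 3 numbered pairs, and its within-group SD of 0.048 log2 was the smallest of the 16. The other 3 averaged 93.9% to 97.2% of control, so the 5 probe sets of Npnt ran between 93.9% and 105.8% with both signs.

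Inmt, the indolethylamine N-methyltransferase that adds methyl groups to amines such as tryptamine, differed more between arrays than any other of the 8 genes. Its log2 SD over the 6 arrays was 1.24, against 0.39 for Gpx3 and 0.094 for Tcf21. Inmt was also the gene with TATAAA in its promoter as printed above, and a link with this spread was not tested. Its probe set (1418697_at) read 2382, 3693 and 17992 in Scap_ko lungs, against 9223, 6210 and 20846 in Scap_control lungs. The arrays numbered 3 were far above the others in both groups, and Scap_ko array 3 exceeded control arrays 1 and 2. Means were 8022 ± 8659 in Scap_ko lungs and 12093 ± 7729 in Scap_control lungs, at 51.0% of control. The log2 difference of -0.97 had an SE of 0.77 (95% interval -2.78 to 0.84, limma adjusted p = 0.954). Within the numbered pairs the Scap_ko sample was lower by 1.95, 0.75 and 0.21 on the log2 scale.

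With the replicate number as a block the same Inmt difference had an SE of 0.32 (limma adjusted p = 0.548), and Inmt was then the 1 of the 16 probe sets below an unadjusted p of 0.05, beside 8.54% of all probe sets under the block. Without both arrays numbered 3 the 2 remaining Scap_ko arrays lay below both controls, with a log2 difference of -1.35 (SE 0.29, limma adjusted p = 0.798), and 5.46% of all probe sets were, like Inmt, below an unadjusted p of 0.05. It was -1.84 without Scap_ko replicate 3, -0.70 without Scap_ko replicate 2, -0.38 without Scap_ko replicate 1 and -0.48 without Scap_control replicate 3. Its within-group SD of 1.25 log2 ranked 36 among the 22519 tested probe sets.

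Gpx3, a secreted selenium-dependent glutathione peroxidase, followed a similar order of arrays with a smaller range. Its probe set (1449106_at) read 17882, 19128 and 30288 in Scap_ko lungs, against 30719, 21448 and 33156 in Scap_control lungs. Scap_ko arrays 1 and 2 lay below every control, and Scap_ko array 3 lay among the controls. Means were 22433 ± 6831 in Scap_ko lungs and 28441 ± 6177 in Scap_control lungs, a log2 difference of -0.36 (SE 0.25, 95% interval -0.94 to 0.22, limma adjusted p = 0.954). The Scap_ko sample was lower in all 3 numbered pairs, by 0.78, 0.17 and 0.13 on the log2 scale. With the replicate number as a block the SE was 0.16 (limma adjusted p = 0.607). Without both arrays numbered 3 the difference was -0.47 (SE 0.20, limma adjusted p = 0.911). Without Scap_ko replicate 3 the difference was -0.60 (SE 0.21, below an unadjusted p of 0.05, limma adjusted p = 0.866). It was -0.22 without Scap_ko replicate 1, -0.24 without Scap_control replicate 3, -0.26 without Scap_ko replicate 2 and -0.55 without Scap_control replicate 2, none of them below that p. The share of all probe sets below that p was not counted for these fits with 1 array left out.

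**Figure D3:**
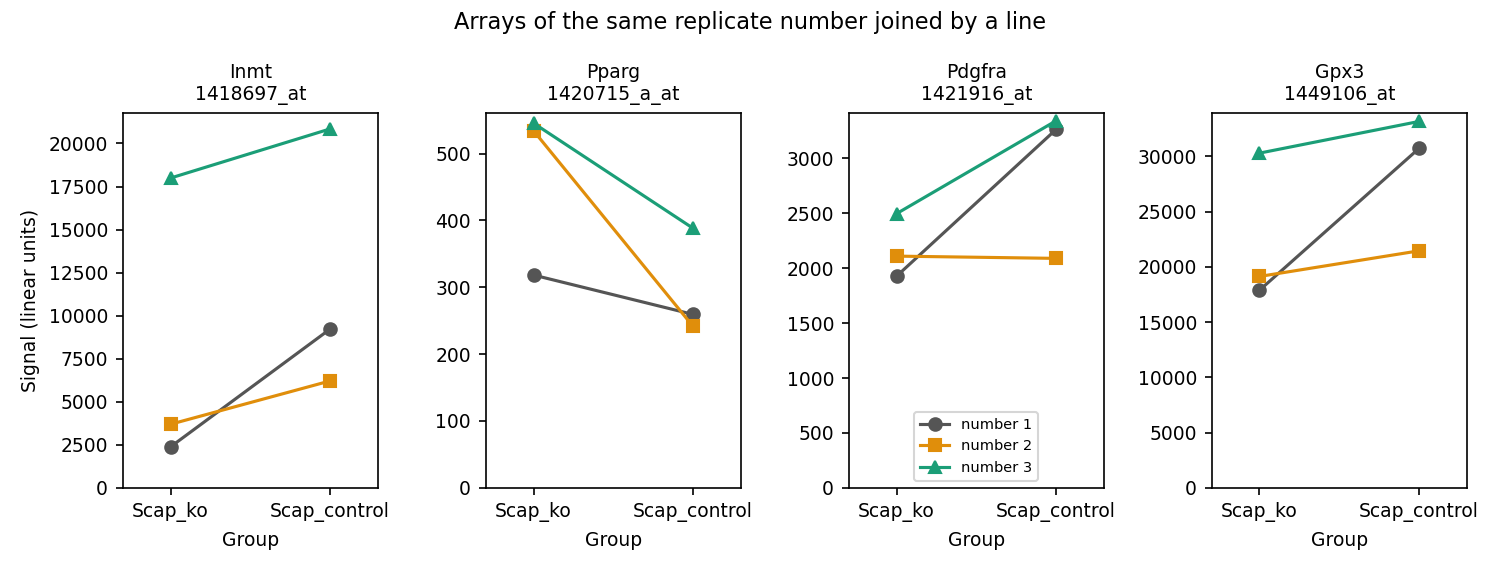
Signal (linear units, from 0) of Inmt, Pparg, the second Pdgfra probe set and Gpx3, which had the largest log2 differences between groups of the 18 probe sets, in Scap_ko (left) and Scap_control (right) lungs, with arrays of the same replicate number joined. For Inmt and Gpx3 the line of number 3 lies on top and each line ends higher at Scap_control, while for Pparg each line ends higher at Scap_ko.

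Relative to the mean of arrays 1 and 2 of the same group, array 3 was higher for Inmt by 2.60 log2 in Scap_ko and 1.46 in Scap_control lungs, and for Gpx3 by 0.71 in Scap_ko and 0.37 in Scap_control lungs. For the brightest Tcf21 probe set it was higher by 0.048 in Scap_ko and 0.18 in Scap_control lungs, and for Pth1r lower, at -0.11 in Scap_ko and -0.24 in Scap_control lungs. For Pparg it was higher by 0.40 in Scap_ko and 0.63 in Scap_control lungs, and for the second Pdgfra probe set by 0.31 in Scap_ko and 0.36 in Scap_control lungs. Marker lists differed between the same arrays too. The mean log2 level of array 3 over arrays 1 and 2 was 0.38 in Scap_ko and 0.12 in Scap_control lungs for 5 mesothelial markers. For 5 pericyte markers it was 0.30 in Scap_ko and 0.18 in Scap_control lungs. For 6 alveolar type II markers it was 0.32 in Scap_ko and -0.011 in Scap_control lungs. For 6 leukocyte markers it was 0.34 in Scap_ko and 0.049 in Scap_control lungs, and for 4 liver markers, of which 3 were dim, -0.52 in Scap_ko and -1.43 in Scap_control lungs. In each of these 5 lists array 3 stood 0.30 or more from the other arrays of at least 1 group. Sums ran from 33469 to 36339 in Scap_ko and 34857 to 37596 in Scap_control lungs for mesothelium, and from 26404 to 33842 in Scap_ko and 28471 to 32695 in Scap_control lungs for pericytes. They ran from 225479 to 258419 in Scap_ko and 254786 to 305673 in Scap_control lungs for alveolar type II cells, from 40988 to 57639 in Scap_ko and 61890 to 76305 in Scap_control lungs for leukocytes, and from 2436 to 3905 in Scap_ko and 3385 to 5859 in Scap_control lungs for liver. The brightest leukocyte marker, Lyz2, averaged 34436 ± 8264 in Scap_ko and 58937 ± 7611 in Scap_control lungs. Lyz2 made up most of the leukocyte sums. Csf1r, the next brightest, averaged 7573 ± 673 in Scap_ko and 8301 ± 622 in Scap_control lungs. Whether Lyz2 was read from leukocytes alone was not tested. By log2 difference 3 of the 6 leukocyte markers were higher and 3 lower in Scap_ko lungs. All 4 liver markers were lower, with a median of -1.94. Also lower were 5 of 6 alveolar type II, 4 of 5 mesothelial, 4 of 5 pericyte and 5 of 6 endothelial markers. In the lists for alveolar type I cells and general epithelium 3 of 6 and 3 of 7 were lower, and all 6 muscle markers were higher. In the lists for alveolar type I cells, general epithelium, endothelium and muscle array 3 stood at -0.10 to 0.24 relative to arrays 1 and 2 in Scap_ko and at 0.024 to 0.14 in Scap_control lungs. Of these 9 lists no marker was at 0 on any array, and their part in the Inmt and Gpx3 values was not tested.

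The genes whose gene-centred profile lay closest to that of Inmt were Aspg, S100g and Rbm45, at root mean square differences of 0.43, 0.44 and 0.48 log2 over the 6 arrays, beside a spread of 1.13 for Inmt itself. S100g, which encodes a calcium-binding protein, read 1497, 1145 and 4668 in Scap_ko lungs, against 2758, 2415 and 5626 in Scap_control lungs, again with both arrays numbered 3 on top.

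Lists of related genes were read by each gene's brightest probe set, and of all 10972 genes tested that way 4.89% were below an unadjusted p of 0.05 and 48.3% had negative differences. Groups did not overlap in 1298 of the 10972. Among ligands and partners of the 3 receptors and of nephronectin, 6 of 13 tested genes had positive and 7 negative differences, with a median log2 difference of -0.0090. Pdgfa, the ligand of Pdgfra, read 6856, 7200 and 6423 in Scap_ko lungs, against 5807, 5510 and 5678 in Scap_control lungs. All 3 Scap_ko arrays lay above all controls, at 120.4% of control, and the log2 difference of 0.27 (SE 0.098) did not pass (limma adjusted p = 0.913). It was the only one of the 13 below an unadjusted p of 0.05. Stat3 and Socs3, which act downstream of the leptin receptor, followed at 113.5% and 119.1% of control with overlapping groups.

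Among partners of PPAR gamma and regulators of fat cell formation, 9 of 15 tested genes had positive differences and 1 was below an unadjusted p of 0.05, Ppard, which encodes the related receptor PPAR delta, at 76.1% of control (limma adjusted p = 0.937). Cebpa, a factor of fat cell formation that lung epithelium also uses, stood at 78.9% and the partner receptor gene Rxrb at 81.8%, with overlapping groups. Of 15 tested PPAR gamma targets and lipid droplet genes, 5 differed upward and 10 downward, the median gene being at 95.3% of control. Fabp5, a fatty acid binding protein gene, averaged 35234 ± 8569 in Scap_ko lungs and 58245 ± 9769 in Scap_control lungs, without overlap (limma adjusted p = 0.864). Cd36, a fatty acid receptor gene, stood at 75.5% of control, also without overlap (adjusted p = 0.913), and both were below an unadjusted p of 0.05. Whole-lung arrays do not tell which cells the Fabp5 and Cd36 signals came from, and this was not tested. Dgat2, which makes triglyceride, stood at 84.8% without overlap and missed that p. Fitm2 and Plin2, named after their values were seen, were also lower without overlap and missed it, at 87.8% and 91.6%. Of 9 tested retinoid genes 8 lay below control, the median being Dhrs3 at 88.3% without overlap, and 0 were below an unadjusted p of 0.05. Rbp4, a retinol carrier, stood at 83.8% and Aldh1a1, which makes retinoic acid, at 92.5%.

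Of 22 tested genes of alveolar fibroblasts 16 lay below control, the median gene being at 95.3%, and 2 were below an unadjusted p of 0.05. Ces1d, one of a family of similar carboxylesterase genes whose signals may not be separable, stood at 73.0% of control (adjusted p = 0.791). Hsd11b1, which regenerates active glucocorticoid, stood at 83.3% (adjusted p = 0.920), and the transcription factor gene Tbx5 at 83.8% with overlapping groups. Of 11 myofibroblast and smooth muscle genes 7 lay above control, with Aspn as the median at 107.9%, and 0 were below an unadjusted p of 0.05. Tgfbi stood at 132.5% and Hhip, a Hedgehog-binding protein gene, at 107.9%. Among selenoprotein and peroxidase genes beside Gpx3, 6 of 12 were positive and 0 reached that p, with Gpx4 at 90.4%, catalase (Cat) at 84.8% and Sephs2 at 88.7% of control. All 6 tested genes of the methyltransferase list beside Inmt had negative differences. The list includes Ahcy, which is not a methyltransferase. Of the 6, 1, Gamt, which makes creatine, was below an unadjusted p of 0.05, at 81.6% of control (adjusted p = 0.940). Pnmt, which makes adrenaline, stood at 68.4% and Gnmt, which methylates glycine, at 83.2%, both with overlapping groups. With the replicate block, under which 6.96% of all genes were below an unadjusted p of 0.05, 4 of these 8 lists each gained 1 gene: Cebpa among PPAR gamma partners, Tgfbi among myofibroblast genes, and Cyp26b1 among retinoid and Slc7a10 among alveolar fibroblast genes, these 2 named after their values were seen. In the methyltransferase list the block put Pnmt below that p in place of Gamt, and the other 3 lists kept their counts. The median over all 10972 genes was 0.0051 on the log2 scale, and -0.066 over the 7 tested genes of the 8. Of the genes named in this paragraph Ces1d, Hsd11b1 and Gamt were lower and Hhip was higher in Scap_ko lungs without overlap. No gene of these lists passed the adjusted threshold. Several percentages rest on single arrays: with 1 array left out the log2 difference ran from -0.86 to -0.22 for Pnmt, from -0.46 to -0.12 for Rbp4, from -0.41 to -0.040 for Gnmt, from -0.27 to -0.017 for Sephs2 and from 0.19 to 0.63 for Tgfbi.

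**Figure D4:**
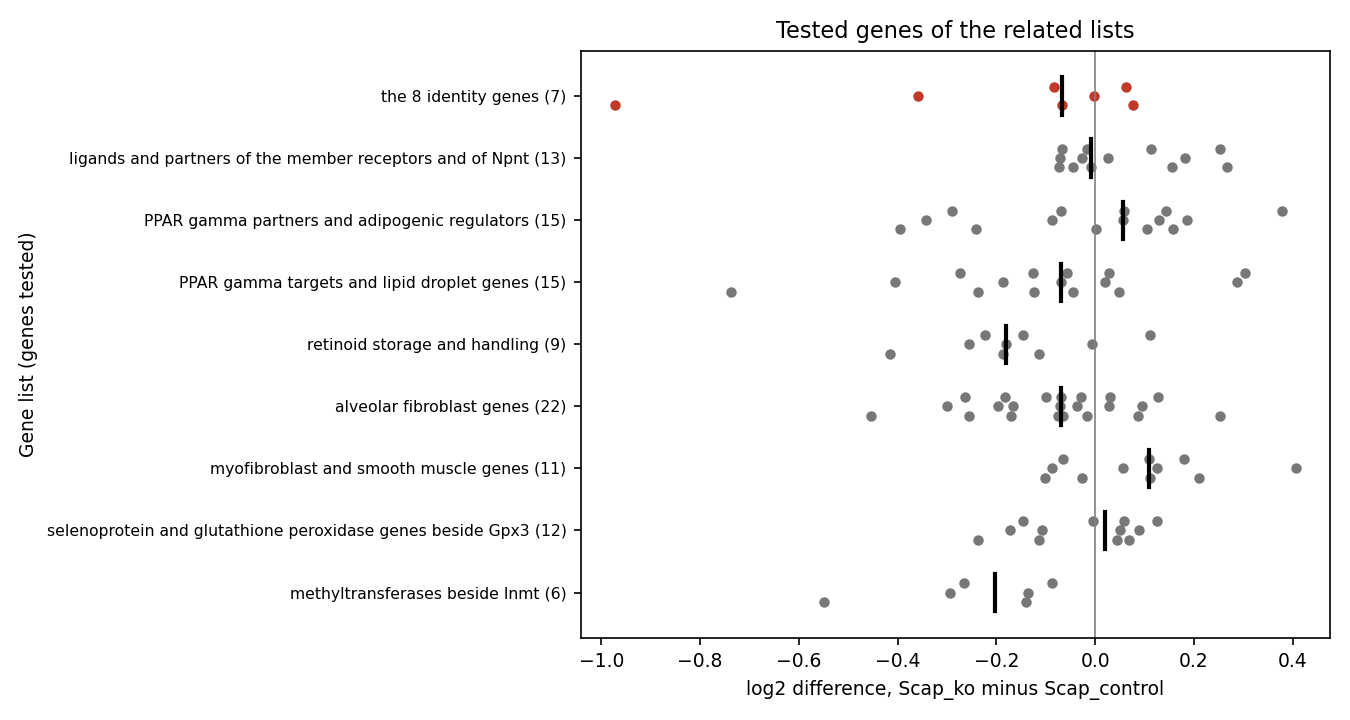
Log2 difference between Scap_ko and Scap_control arrays for the tested genes of each list (1 point a gene, brightest probe set), with a black line at each list's median and the number of tested genes in brackets. The 7 tested identity genes have their median at -0.066, with Inmt at -0.97 and Gpx3 at -0.36 far to the left.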

How the data were processed

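Whole-lung RNA of 6 mouse samples was isolated with an RNeasy kit and biotin-labelled, per the labels' protocols, and read on MOE430 V2 arrays. The authors deposited 1 table of linear signal intensity values. Per the submitters' processing notes RMA was used, yet the values are linear, span 0.2 to 128538 and share a mean of 1500 after 2% trimming at either end; the sources used here name no background correction.

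After 64 control probe sets were left out, log2 signals were tested with limma 3.58.1 (lmFit, eBayes; R 4.3.3), without a pseudocount, over the 22519 probe sets at or above the median brightness. The fit without the replicate block was tested on simulated data with independent noise on each array. Those data held no deviations shared between arrays, and the block was not tested on them. Groups and numbers came from the titles. Numbers were taken to pair the samples, since deviations from group means correlated at 0.20, 0.28 and 0.41 within pairs 1 to 3. Between unlike numbers the correlations ran from -0.29 to 0.045. The titles do not say what the numbers stand for, and the pairing was taken from these same data.

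The genes and lists were chosen with earlier results of these data known. Named are all probe sets of the 8 genes, Scap, the 3 genes of smallest p in each related list, the 2 brightest of each marker list, and the 3 profiles most like Pparg and Inmt. Alternatives were quantile normalization, a pseudocount of 100, other brightness filters, an intensity trend, 1 probe set per gene, the replicate block and left-out arrays.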

Additional observations from a re-analysis of the deposited data

How the results depend on the processing

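No probe set of the 8 genes passed an adjusted p of 0.05 under any alternative run. At an unadjusted p of 0.05 the count among the 16 tested was 1 with the replicate block (Inmt), 1 without both arrays numbered 3 (Inmt), and 0 to 2 when 1 array was left out: 2 without Scap_ko replicate 3 (Inmt and Gpx3) and 1 without Scap_control replicate 2 (the second Pdgfra probe set). Shares of all probe sets below that p were not counted with 1 array left out, so these single-array counts have no background. The causes were not tested. Over the whole array 2 probe sets were called with an intensity trend in the variance, 1 with only the brightest probe set of each gene, and 0 to 1 with 1 array left out. The replicate block changed no adjusted call. The 18 probe sets gave 248 alternative values, of which 22 changed sign; 2 of these were the dim Lepr probe set, which ran from -0.30 to 0.20 with 1 array left out. The brightest Pdgfra probe set was 0.0022 under quantile normalization. Without both arrays numbered 3, Npnt probe sets 1426560_a_at and 1421429_a_at were at 0.090 and 0.14. With 1 array left out, log2 differences ranged from -0.15 to 0.084 (Pdgfra 1421917_at), -0.23 to 0.099 (Pdgfra 1438946_at), -0.067 to 0.072 (Tcf21 1458887_at), -0.16 to 0.0089 (Lepr 1425644_at), -0.0025 to 0.17 (Pth1r), and, for Npnt, -0.017 to 0.14 (1452106_at), -0.17 to 0.0061 (1426561_a_at), -0.15 to 0.038 (1426560_a_at) and -0.14 to 0.071 (1421429_a_at). Pparg stayed positive throughout, from 0.51 to 0.90. Of 371 alternative values of the other named genes 1 changed sign, that of Socs3, to -0.12 without both arrays numbered 3. Yet 13 of those 25 genes' differences and 17 of the 18 probe sets' moved by over 1.5 times when 1 array was left out; among them were Cat (-0.46 to -0.074), Socs3 (0.048 to 0.40), Stat3 (0.089 to 0.28), Aldh1a1 (-0.17 to -0.037), Rxrb (-0.43 to -0.19), Dgat2 (-0.32 to -0.15), Dhrs3 (-0.23 to -0.096) and Scap (-1.12 to -0.50). The fit with no filter and a replicate block was chosen after seeing the data. Dim signals and 3 arrays per group limit every comparison.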
